A study of Mus musculus with 9 samples.

Results

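Cytosolic ribosomal protein genes were followed through a mouse lung tumour line and its single-cell subclones. They were taken by symbol, as every row named Rpl or Rps followed by a number and at most one of the letters a, l or x, together with Rpsa, Rplp0, Rplp1, Rplp2 and Rpl22l1. This gave 81 of the 15768 gene symbols in the table, 50 of the large subunit and 31 of the small subunit, counting the paralogs and gene copies Rpl3l, Rpl6l, Rpl32l, Rpl22l1 and Rps27l under the subunit of the gene they resemble. Rps3a1, Fau, Rpl36al and Rpl7l1 fall outside the symbol rule and are given apart.

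The cytosolic ribosome joins a small subunit, which reads the mRNA, and a large subunit, which forms the peptide bond and leads the new chain out through a tunnel. Each protein is needed in about the same amount, and mammalian ribosomal protein mRNAs share a 5′ terminal oligopyrimidine tract, a run of C and T bases at the transcript start through which mTOR and LARP1 control their translation. Most of these genes have processed pseudogenes, reverse-transcribed copies scattered over the genome, so short reads can be hard to assign to one locus.

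LLC1 is an established mouse line of Lewis lung carcinoma. SCC2 and SCC1 are subclones that were each grown from a single cell of LLC1 by limiting dilution, so each is 1 clone. All 3 lines carry the label wild type and untreated, and were cultured alike in DMEM with serum over 5 to 8 passages. RNA was sequenced from 3 libraries each of SCC2, SCC1 and LLC1, and the series' title sets the growth of these subclones in the animal beside their own rate of proliferation, though these libraries come from cultured cells. Whether the libraries of one line were separate cultures is not labelled. The p-values therefore measure only how far these samples spread, and that spread may be technical.

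The tract at the transcript start is shown first, since it is the sequence feature by which this family is known. RefSeq promoter windows (build GRCm38.p6) were matched for 60 of the 81 genes. A C followed by at least 4 pyrimidines began exactly at the annotated start in 14 of these 60 genes (23.3%), in 2.76% of the other tested genes with a window and in 2.51% of all windows. Beginning within 10 bases of the start on either side, such a run was present in 63.3% of the members, 36.8% of the other tested genes and 30.7% of all windows. Rpl32l, a gene copy annotated as a processed pseudogene, is among the 14 with a run exactly at the start. The annotated start may lie some bases from the one used in these cells. The stretches below run from 40 bases before the start to 15 bases from it onward. Capitals mark the C that was counted and the pyrimidines that follow it, from the annotated start where a run begins there and otherwise from the longest run that begins within 10 bases of it, and pyrimidines directly before that C stay in lower case. They are Rps6, which fell furthest in SCC1, Rpl38, which rose there, Rpl14 and Rps27, which were lower in both subclones, Rpl35a, which moved in opposite directions, and the paralogs Rpl22 and Rpl22l1, which have no run exactly at the start.
Rps6: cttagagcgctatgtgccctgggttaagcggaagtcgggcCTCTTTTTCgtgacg
Rpl38: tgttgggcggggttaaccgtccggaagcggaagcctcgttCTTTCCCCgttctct
Rpl14: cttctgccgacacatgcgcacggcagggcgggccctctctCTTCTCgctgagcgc
Rps27: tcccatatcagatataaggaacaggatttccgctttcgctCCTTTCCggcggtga
Rpl35a: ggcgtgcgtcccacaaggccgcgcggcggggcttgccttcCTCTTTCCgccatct
Rpl22: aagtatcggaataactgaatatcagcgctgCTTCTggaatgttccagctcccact
Rpl22l1: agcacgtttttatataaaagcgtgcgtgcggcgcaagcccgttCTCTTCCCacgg
The first lies at chr4:86857353-86857407 on the minus strand, Rpl38 at chr11:114668540-114668594 on the plus strand, Rpl14 at chr9:120571477-120571531 on the plus strand and Rps27 at chr3:90213634-90213688 on the minus strand. Rpl35a lies at chr16:33056442-33056496, Rpl22 at chr4:152324396-152324450 and Rpl22l1 at chr3:28805468-28805522, all on the plus strand.

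Other short motifs were searched in the full windows, from 250 bases before the start to 50 bases after it. CTTCCG, the core bound by ETS factors, was present on either strand in 66.7% of the members, 38.2% of the other tested genes and 16.9% of all windows. The longer ACTTCCGG, which contains that core, was present in 12 of the 60 members with a window, 10.2% of the other tested genes and 3.89% of all windows. GCCATNTT, part of the site of the factor YY1, was present in 12 of the 60 members, 10.8% and 6.05%, and TATAA between 40 and 16 bases before the start, on the gene's strand only, in 8.33%, 2.07% and 3.52%. These shares describe letters in the windows and say nothing of binding in these cells.

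Ribosomal protein transcripts were among the most abundant in every line. The values are FPKM, the fragments of a gene scaled by its length and by the fragments of its library. Of the 100 genes with the highest mean FPKM over all 9 libraries, 60 were members, and 33 members averaged at least 1000 FPKM. The median member stood at 767 FPKM, 684 in the large and 1021 in the small subunit, beside 12.0 for all genes tested. Rpl13 was the highest large subunit gene, with 2555 ± 31.5 FPKM in SCC2, 2784 ± 13.8 in SCC1 and 2760 ± 24.8 in LLC1 (SD, n = 3 each). Rps2, whose protein lies near the mRNA entrance, was the highest of the small subunit, with 2236 ± 16.3 FPKM in SCC2, 3029 ± 60.5 in SCC1 and 2789 ± 35.4 in LLC1. Between the 3 lines the order was SCC1, LLC1, SCC2 for Rps2, with no overlap of libraries, whereas the Rpl13 libraries of SCC1 and LLC1 overlapped. Under quantile normalization both genes were lower in SCC1 than in LLC1, Rps2 by -0.15 (limma adjusted p = 3.61e-07) and Rpl13 by -0.16 (limma adjusted p = 4.90e-06) on the log2 scale. The 5 members under 100 FPKM were Rpl3l, the paralog of Rpl3 known from heart and skeletal muscle, Rpl32l, Rps27l, Rps15a and Rpl6l. Rpl3l was listed at 0 in all libraries of SCC2 and SCC1 and averaged 0.0410 FPKM in LLC1, and it alone failed the filter for testing, which asked for at least 1 FPKM in 3 of the 9 libraries. Rpl32l passed it at a mean of 1.09 FPKM only through libraries of SCC1 and LLC1, where it was higher, since no SCC2 library reached 1 FPKM.

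The summed share of the library differed between the lines. The FPKM of the 81 genes summed to 69093, 69814 and 70240 in the 3 SCC2 libraries, 75754, 75607 and 75879 in the SCC1 libraries, and 77700, 77683 and 77239 in the LLC1 libraries, where all genes of a library summed to 381902 to 391805. Their share of all FPKM was 18.17 ± 0.0805% in SCC2, 19.36 ± 0.0110% in SCC1 and 19.99 ± 0.0588% in LLC1 (SD, n = 3 each). The lines did not overlap, with SCC2 lowest and LLC1 highest, though 3 libraries against 3 cannot go below 0.10 in an exact two-sided permutation test. Large subunit genes took 10.7 ± 0.0591% in SCC2, 11.8 ± 0.0161% in SCC1 and 11.9 ± 0.0801% in LLC1, and small subunit genes 7.45 ± 0.0227%, 7.58 ± 0.0261% and 8.14 ± 0.0314% in the same lines (SD, n = 3 each). The lower sum of SCC1 thus lay mostly in the small subunit and that of SCC2 in both. The ratio of small to large subunit FPKM was 0.693 to 0.697 in SCC2, 0.641 to 0.647 in SCC1 and 0.681 to 0.694 in LLC1. By this ratio SCC1 stood below the other lines, while SCC2 and LLC1 overlapped. The ratio of the median small to the median large subunit gene ordered the lines otherwise, with 1.434, 1.429 and 1.355 in SCC2 and 1.443 to 1.496 in LLC1. The SCC1 libraries, up to 1.419, all lay between the lowest and the middle SCC2 library, and both subclones lay below LLC1. FPKM measures a gene against the rest of its library, and in bulk RNA fewer cells with a transcript and less of it per cell cannot be told apart.

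**Figure D1:**
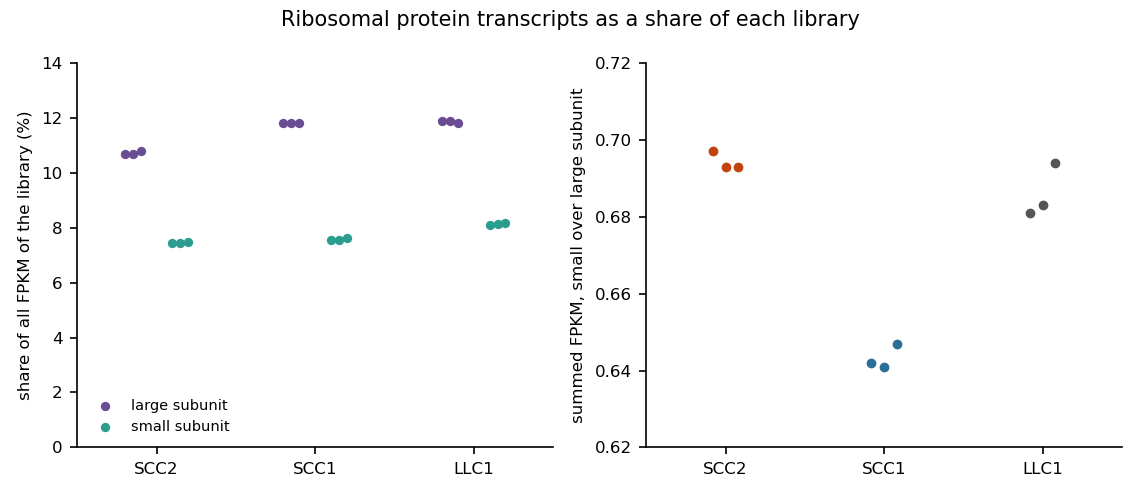
Share of all FPKM of a library taken by large and small subunit genes (left, percent) and the ratio of the summed FPKM of small over large subunit genes (right, an axis that does not start at 0), 1 point for each of the 3 libraries of SCC2, SCC1 and LLC1. Small subunit genes take 7.45% on average in SCC2, 7.58% in SCC1 and 8.14% in LLC1, and the ratio is lowest in SCC1, at 0.641 to 0.647.

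In SCC2 most ribosomal protein transcripts were lower than in LLC1, each by a small amount. Of the 80 members tested with limma on log2(FPKM + 1), 58 were lower and 8 higher at an adjusted p under 0.05. Of all 10519 genes tested, 32.9% were lower and 34.7% higher, 67.6% in all. Shares over all genes tested, here and below, were not matched for level. The median member stood at 767 FPKM and the median gene tested at 12.0. The median log2 change of the members was -0.13, beside 0.0075 over all genes tested, and none changed 2-fold. Both subunits shifted. In the large subunit 38 of 49 fell and 4 rose (median -0.15), and in the small subunit 20 of 31 fell and 4 rose (median -0.12). The libraries did not overlap for 58 members that lay below LLC1 and 9 above it, which 34.2% and 36.5% of all genes tested did (70.7% in all).

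The deepest fall in SCC2 was in Rps14, a protein of the small subunit platform whose loss is tied to the anaemia of the human 5q syndrome. Rps14 had 936.6, 940.6 and 902.3 FPKM in SCC2, against 1363, 1358 and 1411 FPKM in LLC1. Every SCC2 library lay below every LLC1 library, and the log2 change was -0.57 (SE 0.021, limma adjusted p = 8.79e-10). Rpl17, at the rim of the peptide exit tunnel, had 446.2, 435.4 and 447.4 FPKM in SCC2, against 615.1, 621.6 and 604.3 FPKM in LLC1, again with no overlap (log2 change -0.47, SE 0.017, limma adjusted p = 7.35e-10). Rpl4, which sends a loop into the tunnel wall, had 969.6, 971.3 and 985.5 FPKM in SCC2, against 1348, 1354 and 1297 FPKM in LLC1 (-0.45, limma adjusted p = 1.30e-09). Rpsa, a small subunit protein also described as a laminin receptor, had 1055, 1049 and 1065 FPKM in SCC2, against 1420, 1415 and 1432 FPKM in LLC1 (-0.43, limma adjusted p = 3.23e-10). Rpl8, which lies close to the peptidyl transferase centre, fell by 0.42 and Rps6, the substrate of the S6 kinases, by 0.41 on the log2 scale.

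Against this drift 8 members rose in SCC2, led by Rps23, a protein of the decoding centre. Rps23 had 1667, 1640 and 1682 FPKM in SCC2, against 1369, 1403 and 1346 FPKM in LLC1. The lines did not overlap (log2 change 0.28, SE 0.017, limma adjusted p = 6.66e-08). Rpl10, which joins the large subunit late in its maturation, had 1532, 1546 and 1605 FPKM in SCC2, against 1354, 1334 and 1345 FPKM in LLC1 (0.22, limma adjusted p = 6.06e-07). Rps12, a protein of the small subunit head, had 723.4, 742.2 and 762.7 FPKM in SCC2, against 642.0, 643.0 and 640.6 FPKM in LLC1 (0.21, limma adjusted p = 1.65e-06). The other rises were in Rpl22l1, Rps4x, Rpl35a, Rpl41 and Rps20, with log2 changes of 0.17, 0.12, 0.10, 0.097 and 0.093. Refitted with the median change of each chromosome removed, Rps23, Rpl10, Rps4x and Rpl35a had log2 changes of -0.078, -0.0093, -0.11 and -0.11.

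In SCC1 the members split. Of the 80 tested, 31 were higher and 35 lower than in LLC1, against 39.2% higher and 30.9% lower among all genes tested (70.1% in all). In the large subunit 23 of 49 rose and 18 fell (median log2 change 0.025), and in the small subunit 8 of 31 rose and 17 fell (median -0.057), beside a median of 0.033 over all genes tested. The libraries did not overlap for 33 members above LLC1 and 34 below it, which 40.4% and 31.8% of all genes tested did (72.3% in all). The difference between the subunit medians was 0.082, and the same difference varied between libraries of one line with an SD of 0.017. Among the 20 members that share under 20% of their coding windows with other genes this difference was -0.024, with 10 higher and 6 lower. With the median change of each chromosome removed, 14 members were higher and 41 lower, beside 30.0% and 30.7% of all genes tested (60.7% in all).

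**Figure D2:**
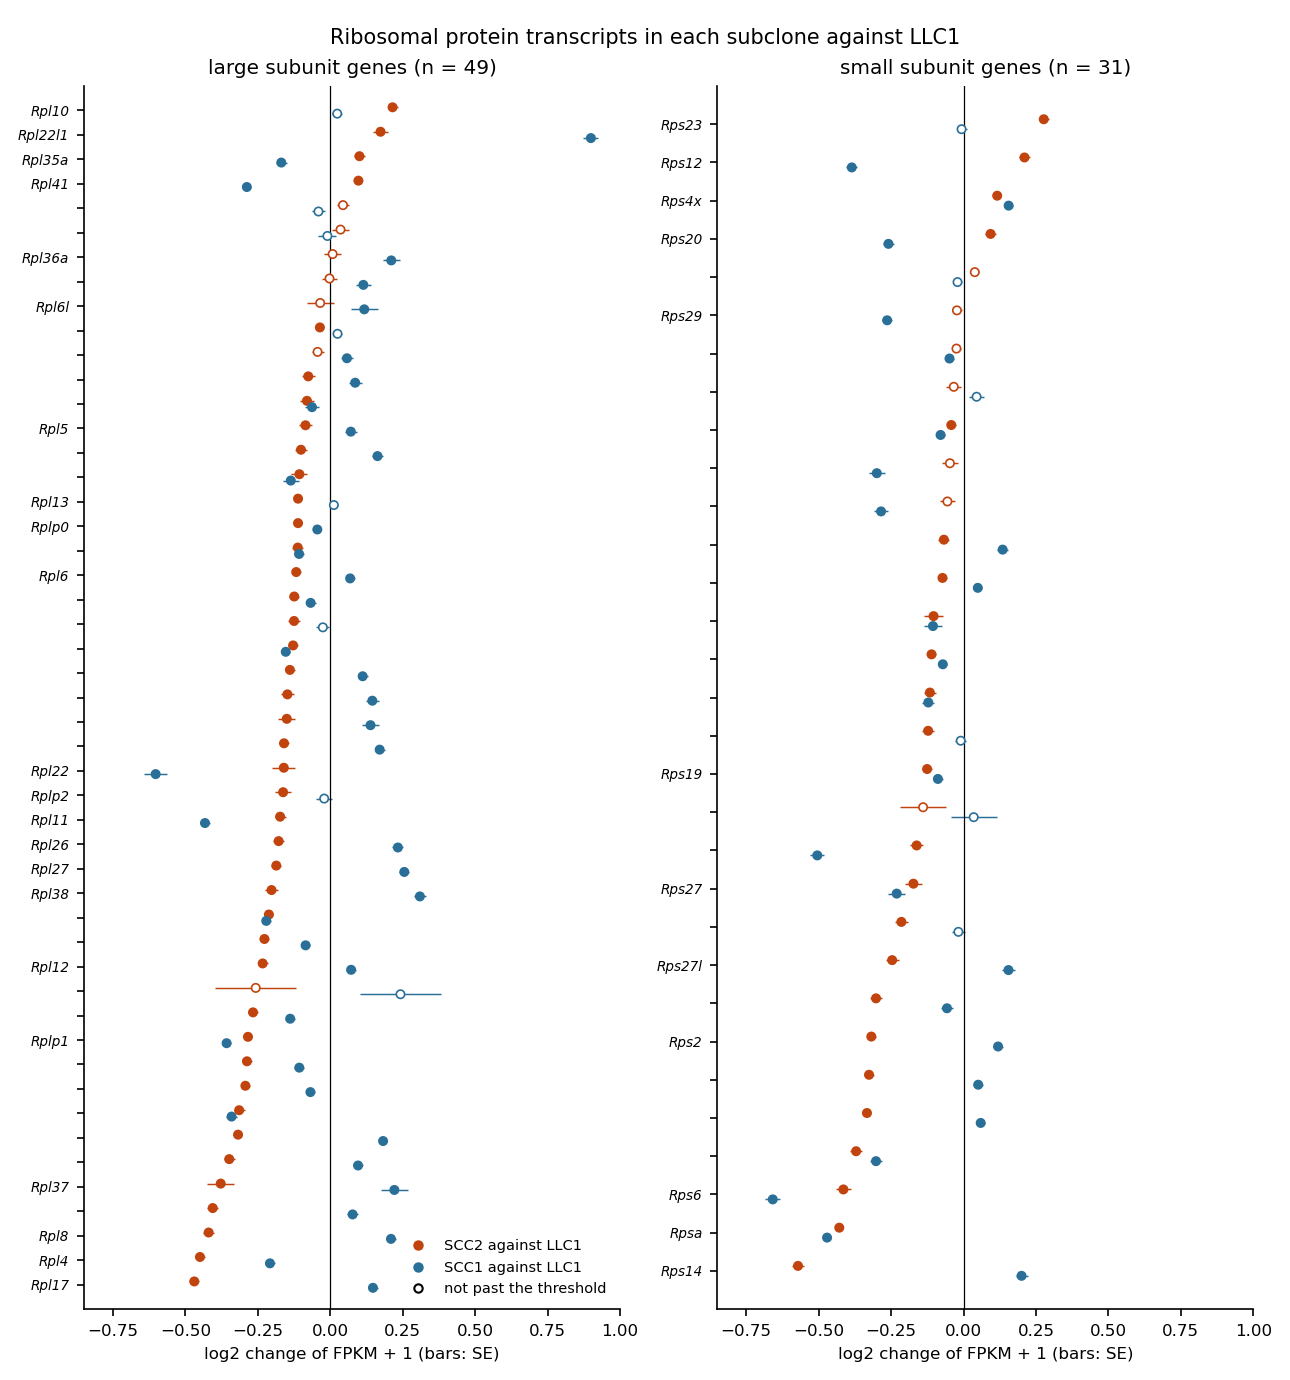
Log2 change of each tested large (left, n = 49) and small (right, n = 31) subunit gene in SCC2 and in SCC1, each against LLC1, with bars for the standard error and names for some of the members; filled points passed an adjusted p of 0.05 in limma and open points did not. Most SCC2 points lie left of 0 (58 lower, 8 higher), while SCC1 points fall on both sides (35 lower, 31 higher), with Rpl22l1 farthest right at 0.90 and Rps6 farthest left at -0.66.

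Among the largest falls in SCC1 were those of Rps6, Rpl22, Rpsa, Rpl11 and Rps12. Rps6 had 543.7, 511.7 and 526.5 FPKM in SCC1, against 848.7, 851.6 and 798.9 FPKM in LLC1. Its lines were far apart (log2 change -0.66, SE 0.026, limma adjusted p = 1.41e-09). Rpsa had 1016, 1020 and 1041 FPKM in SCC1, against 1420, 1415 and 1432 FPKM in LLC1 (-0.47, limma adjusted p = 1.21e-10). Rps12 had 497.5, 484.6 and 490.7 FPKM in SCC1, against 642.0, 643.0 and 640.6 FPKM in LLC1 (-0.39, limma adjusted p = 7.90e-09). Rpsa was thus lower than LLC1 in each subclone, whereas Rps12 lay above LLC1 in SCC2 and below it in SCC1.

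Leaving aside the paralog Rpl22l1, the largest rises in SCC1 were in large subunit genes. Rpl38, which in mice is needed for the translation of Hox mRNAs, had 578.3, 577.1 and 572.3 FPKM in SCC1, against 472.1, 465.6 and 456.0 FPKM in LLC1 (log2 change 0.31, SE 0.022, limma adjusted p = 1.57e-07). Rpl27, Rpl26, Rpl37 and Rpl36a followed, with log2 changes of 0.26, 0.23, 0.22 and 0.21. Rps14 was the small subunit gene that rose most, with 1552, 1589 and 1606 FPKM in SCC1, against 1363, 1358 and 1411 FPKM in LLC1 (0.20, limma adjusted p = 4.56e-06), although it turned to -0.032 (limma adjusted p = 0.189) with chromosome medians removed. Its libraries did not overlap between SCC1 and LLC1.

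Set directly against each other, SCC2 had 49 members lower and 18 higher than SCC1, beside 39.4% lower and 37.0% higher among all genes tested (76.3% in all). The large subunit accounted for most of it, with 35 of 49 lower and 7 higher (median log2 change -0.15), while small subunit genes were nearly balanced, with 14 of 31 lower and 11 higher (median -0.037). The libraries did not overlap for 50 members below SCC1 and 19 above it, which 39.9% and 38.0% of all genes tested did (77.9% in all). Rpl32l is counted among the 49 and the 50, although it passed the filter only through libraries of SCC1 and LLC1. Rps14 differed most, with 936.6, 940.6 and 902.3 FPKM in SCC2, against 1552, 1589 and 1606 FPKM in SCC1 (log2 change -0.77, limma adjusted p = 2.83e-11). Rpl8 had 1394, 1427 and 1433 FPKM in SCC2, against 2160, 2161 and 2264 FPKM in SCC1 (-0.63, limma adjusted p = 6.15e-11). No SCC2 library of either gene reached any SCC1 library. Rpl17, Rpl37 and Rpl38 also fell, by 0.62, 0.60 and 0.51 on the log2 scale, and Rps12, Rpl22, Rpl41 and Rps20 rose by 0.60, 0.44, 0.39 and 0.35. In this comparison the subunit medians differed by -0.115, and by -0.020 among the 20 members that share few windows.

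**Figure D3:**
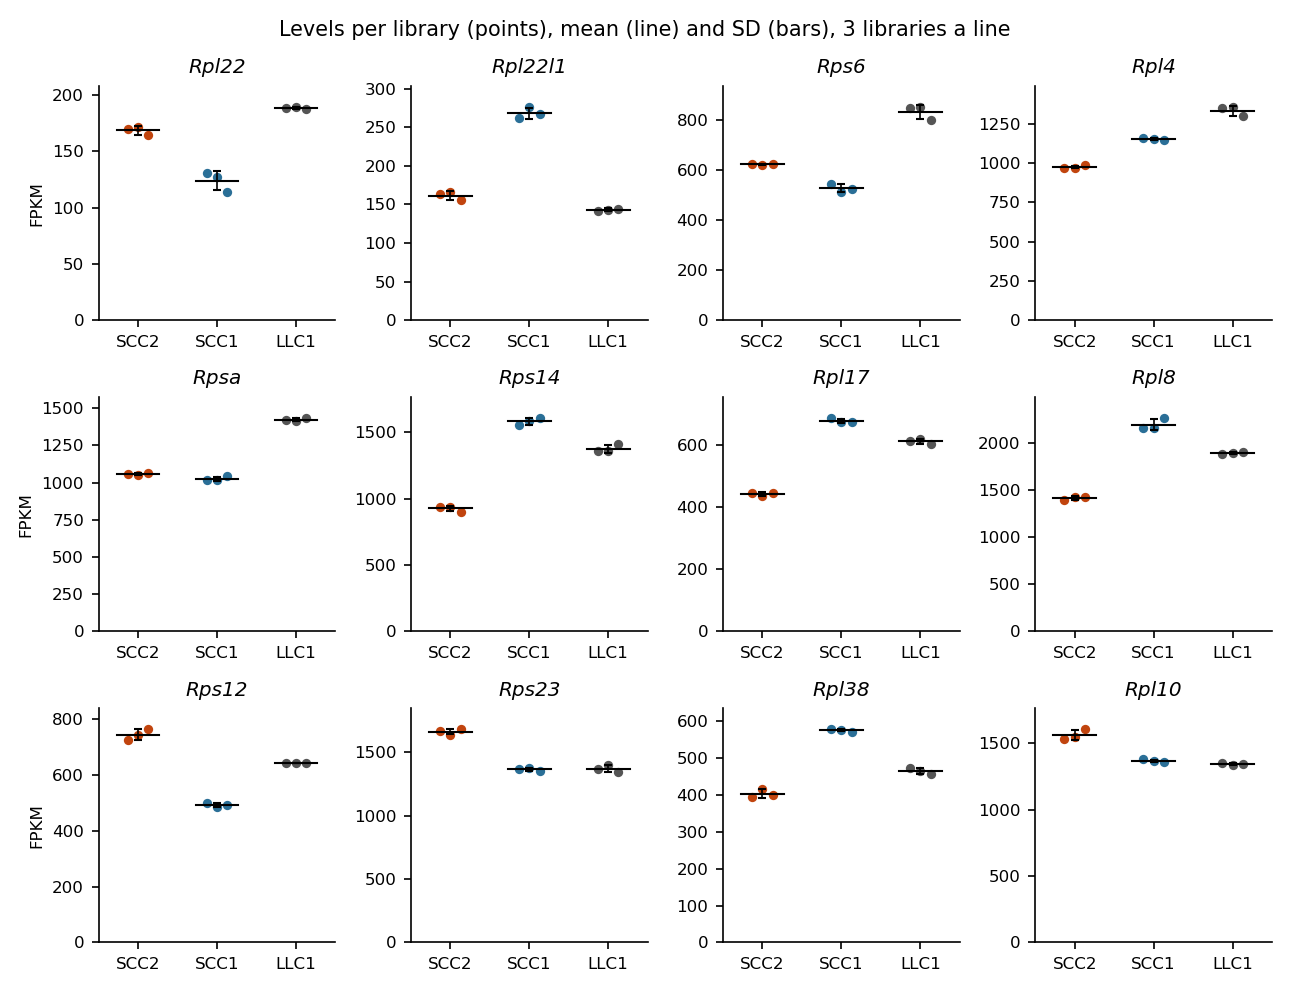
FPKM of 12 members in each library of SCC2, SCC1 and LLC1 (points, axes from 0), with the mean (line) and SD (bars) of the 3 libraries of a line. Rpl22 is lowest and Rpl22l1 highest in SCC1, Rps14, Rpl17 and Rpl8 are lowest in SCC2, and Rpsa is lower in both subclones than in LLC1.

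The paralog pair Rpl22 and Rpl22l1 moved in opposite directions in SCC1. Rpl22 binds structured RNA, is dispensable for bulk translation in mice and is known in mouse cells to repress expression of its paralog Rpl22l1. Rpl22 had 169.5, 171.6 and 164.2 FPKM in SCC2, 130.7, 126.9 and 114.1 FPKM in SCC1, and 188.7, 188.9 and 187.3 FPKM in LLC1. The lines did not overlap, with SCC1 lowest (log2 change -0.60 in SCC1, SE 0.040, limma adjusted p = 9.41e-08, and -0.16 in SCC2, limma adjusted p = 0.00361). Rpl22l1 had 163.1, 166.2 and 155.4 FPKM in SCC2, 261.5, 275.7 and 266.4 FPKM in SCC1, and 141.2, 143.4 and 144.6 FPKM in LLC1. Here SCC1 was highest, and the change of 0.90 against LLC1 (SE 0.026, limma adjusted p = 1.12e-10) was the largest of any member in any comparison, beside 0.17 in SCC2 (limma adjusted p = 1.08e-04). Rpl22 thus averaged 168 and Rpl22l1 162 FPKM in SCC2, 124 and 268 FPKM in SCC1, and 188 and 143 FPKM in LLC1, so that the paralog exceeded Rpl22 in SCC1 and not in LLC1. Whether one level set the other was not tested.

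The pair is far enough apart in sequence for reads to be told apart. Over 323 aligned bases without gaps the coding sequences were 73.7% identical. The windows below were chosen as the 60 bases with the most mismatches and differ at 24 of them (GENCODE M21 coding sequence on GRCm38, bases 175 to 234 of Rpl22 and 157 to 216 of Rpl22l1, with mismatches in capitals).
Rpl22: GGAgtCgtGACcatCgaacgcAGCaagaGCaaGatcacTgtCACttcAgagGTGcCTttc
Rpl22l1: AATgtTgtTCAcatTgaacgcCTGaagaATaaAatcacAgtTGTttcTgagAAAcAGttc
None of the 235 windows of 150 bases of the Rpl22 coding sequence recurred in another annotated gene, and 32.3% of those of Rpl22l1 did, its closest copy being a pseudogene at 99.71% identity. The gene copy Rpl6l is the opposite case. It matched 98.7% of the aligned coding bases of Rpl6 and is annotated there as a processed pseudogene. The window below, with bases 458 to 517 of each, was chosen in the same way and holds 6 of their 11 mismatches.
Rpl6: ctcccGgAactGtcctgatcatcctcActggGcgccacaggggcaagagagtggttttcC
Rpl6l: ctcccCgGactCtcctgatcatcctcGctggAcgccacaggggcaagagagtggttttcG
Rpl6l had 83.34, 81.34 and 87.66 FPKM in SCC2, 99.30, 90.98 and 90.59 FPKM in SCC1, and 90.13, 88.34 and 80.28 FPKM in LLC1, and Rpl6 averaged 631, 718 and 684 FPKM in these lines. How much of the Rpl6l value came from Rpl6 reads cannot be told apart from these files.

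Rps27 and its paralog Rps27l, which in human cells is a target of p53, parted in SCC1, while both were lower than LLC1 in SCC2. Rps27l averaged 46.8 ± 0.560 FPKM in SCC2, 62.1 ± 0.895 in SCC1 and 55.7 ± 1.26 in LLC1, so it was lower in SCC2 (log2 change -0.25) and higher in SCC1 (0.15). Rps27 averaged 684 ± 24.6 FPKM in SCC2, 657 ± 25.6 in SCC1 and 771 ± 5.94 in LLC1 and was lower in both (-0.17 and -0.23, all with limma adjusted p under the threshold). All 103 windows of 150 bases of the Rps27 coding sequence recurred in another annotated gene, and none of those of Rps27l did. Rpl10l, Rpl39l and Rps4l, the paralogs of Rpl10, Rpl39 and Rps4x, were not among the gene symbols in the table, so they could not be analysed.

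The members were also counted by their place in the ribosome, beside 34.7% of all genes tested that rose and 32.9% that fell in SCC2 and 39.2% and 30.9% in SCC1. The stalk, which recruits the translation factors, comprises Rplp0, Rplp1 and Rplp2 with Rpl12 at its base, and all 4 were lower in SCC2 (median log2 change -0.20). In SCC1 Rplp1 and Rplp0 fell, Rpl12 rose and Rplp2 did not pass the test. Rplp1 had 2140, 2160 and 2106 FPKM in SCC2, 2005, 2036 and 2045 FPKM in SCC1, and 2589, 2564 and 2648 FPKM in LLC1. Both subclones lay below LLC1, by -0.28 in SCC2 and -0.36 in SCC1. Under quantile normalization Rplp0 had 0.0000 in every comparison. That setting gives each rank by level the same value in every library, so a gene that keeps its rank can show no change there.

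Rpl5 and Rpl11, which form the 5S particle with the 5S rRNA and can bind Mdm2, did not move alike. Rpl11 averaged 295 ± 3.57 FPKM in SCC2, 246 ± 1.59 in SCC1 and 333 ± 7.90 in LLC1, and was lower in both subclones (log2 change -0.17 in SCC2 and -0.43 in SCC1). Rpl5 averaged 467 ± 5.61 FPKM in SCC2, 520 ± 6.38 in SCC1 and 495 ± 15.3 in LLC1, lower in SCC2 (-0.085) and higher in SCC1 (0.071, limma adjusted p = 0.0112, which passed under neither quantile normalization nor median-of-ratios scaling).

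Of the 7 genes at the rim of the exit tunnel (Rpl17, Rpl19, Rpl23a, Rpl26, Rpl31, Rpl35 and Rpl39), 0 rose and 5 fell in SCC2, while 6 rose and 0 fell in SCC1, beside 34.7% higher and 32.9% lower in SCC2 and 39.2% and 30.9% in SCC1 among all genes tested. The same shares of all genes hold for the lists that follow. The rim genes had a median log2 change of -0.15 in SCC2 and 0.15 in SCC1. With chromosome medians removed, 3 of those that rose in SCC1 had negative log2 changes there, Rpl17 of -0.085, Rpl19 of -0.0076 and Rpl39 of -0.052. Of the 14 genes of the small subunit head, 2 rose and 9 fell in SCC2, and 4 rose and 9 fell in SCC1. Of the 16 genes of its body and platform, 2 rose and 10 fell in SCC2, and 3 rose and 8 fell in SCC1. Of the 33 members with counterparts in bacteria and archaea as well, 3 rose and 27 fell in SCC2, and 13 rose and 16 fell in SCC1.

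Among 10 members in which mutations cause Diamond-Blackfan anaemia in humans, 1 rose and 6 fell in SCC2 (34.7% and 32.9% of all genes tested), and 4 rose and 5 fell in SCC1 (39.2% and 30.9%). Rps19, the gene most often mutated in that disease, had 531.9, 546.7 and 532.3 FPKM in SCC2, 544.9, 548.4 and 559.7 FPKM in SCC1, and 590.4, 576.3 and 591.5 FPKM in LLC1. Both subclones lay below every LLC1 library, by -0.13 in SCC2 and -0.089 in SCC1, and overlapped with each other. Of the genes outside the symbol rule, Rpl36al rose in SCC2 (0.14) and fell in SCC1 (-0.26), and Rpl7l1 fell in SCC2 (-0.079, which turned to 0.048 with chromosome medians removed) and rose in SCC1 (0.24). Fau, a fusion of a ubiquitin-like protein with a small subunit protein, fell in SCC2 (-0.15) and in SCC1 (-0.19). Rps3a1 had -0.016 in SCC2 and 0.027 in SCC1, neither past the threshold.

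The change of a member was set beside that of the other genes on its chromosome. For each of the 80 tested members the median log2 change of the other tested genes on the same chromosome was computed, over 263 to 873 genes. Across members on 19 chromosomes these quantities had a Pearson r of 0.835 in SCC2 against LLC1, 0.681 in SCC1 against LLC1 and 0.778 in SCC2 against SCC1. These are descriptions across genes that share libraries and chromosomes, so no p is given. Taking only other genes within 5 Mb gave 0.846, 0.694 and 0.798. The member's change and that median had the same sign for 46 of the 80 members in SCC2, 51 of 80 in SCC1 and 49 of 80 between the subclones. Where a chromosome's median lay beyond 0.1 on the log2 scale, the member's change had the same sign for 26 of 31 members in SCC2, for 32 of 37 in SCC1 and for 36 of 38 between the subclones. Copy number was not measured in these files.

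**Figure D4:**
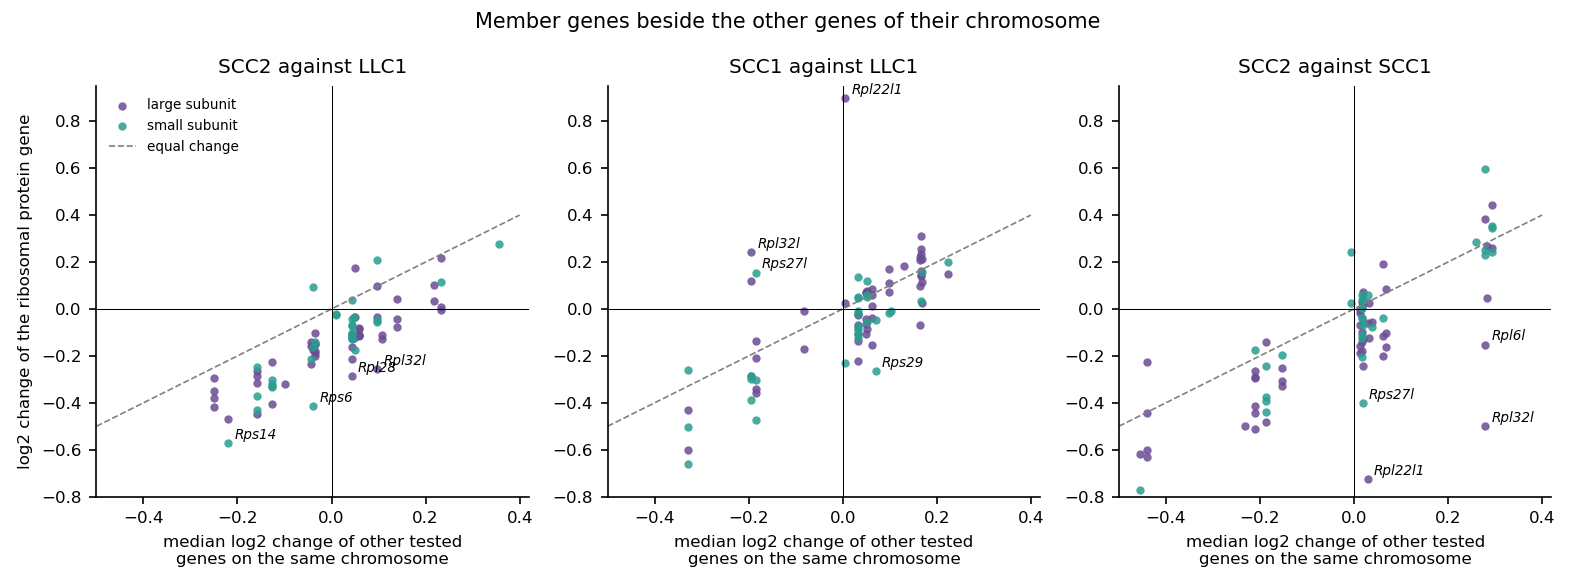
Log2 change of each tested member (vertical) against the median log2 change of the other tested genes on its chromosome (horizontal) in SCC2 against LLC1, SCC1 against LLC1 and SCC2 against SCC1, by subunit; the dashed line marks equal change, and the 4 members farthest from it are named. Points follow the line with r of 0.835, 0.681 and 0.778, in SCC2 mostly below it, and Rpl22l1 stands far above it in SCC1.

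Chromosome 4 gave the clearest case in SCC1, where its other 609 tested genes had a median log2 change of -0.33. Rps6, Rpl22, Rpl11 and Rps20 on it fell, by 0.26 to 0.66. In SCC2 that median was -0.040, and Rps6, Rpl22 and Rpl11 fell and Rps20 rose. Chromosome 11 showed the reverse direction in SCC1, with a median of 0.17 and 6 of 7 members higher. These were Rpl38, Rpl27, Rpl26, Rpl19, Rpl23 and Rpl23a, while Rps27a had 0.035 and did not pass. Over all genes tested 39.2% were higher and 30.9% lower in SCC1, and 34.7% higher and 32.9% lower in SCC2.

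Chromosome 9 had a median of -0.16 in SCC2 and -0.18 in SCC1. All 7 members on it fell in SCC2, and 6 of them fell in SCC1 while Rps27l rose. Beside these and the counts that follow, 32.9% of all genes tested were lower and 34.7% higher in SCC2. In SCC1 30.9% were lower and 39.2% higher. Chromosome 15 carries Rpl3, Rpl8, Rpl30 and Rpl37, all of which fell in SCC2 (chromosome median -0.25) and of which 3 rose in SCC1 (chromosome median 0.16). Chromosome 18 carries Rps14 and Rpl17, with medians of -0.22 in SCC2 and 0.22 in SCC1. None of the 4 members on the X chromosome passed the test as lower in either subclone, beside medians of 0.23 in SCC2 and 0.17 in SCC1.

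Once each member's change was taken relative to the median of its chromosome, the spread across members was narrower in each comparison. The SD across members was 0.093 after this step and 0.167 before it in SCC2, 0.169 and 0.230 in SCC1, and 0.174 and 0.275 between the subclones. The median member then stood at -0.15 in SCC2 against LLC1, -0.055 in SCC1 against LLC1 and -0.085 in SCC2 against SCC1. Refitted with chromosome medians removed, 71 members were lower and 3 higher in SCC2, 41 lower and 14 higher in SCC1, and 46 lower and 11 higher in SCC2 against SCC1. Under this setting 29.6% of all genes tested were lower and 29.3% higher in SCC2 (58.9% in all), 30.7% and 30.0% in SCC1 (60.7%), and 33.7% and 33.3% in SCC2 against SCC1 (67.0%). By subunit the median after this step was -0.15 for large and -0.15 for small subunit genes in SCC2, and -0.028 and -0.11 in SCC1. Rpl22l1 kept nearly its whole rise in SCC1, since chromosome 3 had a median of 0.0046, and Rps29, on chromosome 12 with a median of 0.070, fell by 0.26 there.

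Both comparisons with LLC1 use the same 3 LLC1 libraries, so a deviation shared by these libraries would enter both. The values of each subclone are therefore given side by side and not correlated.

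Genes that build ribosomes were counted in the same fits, in which 34.7% of all genes tested rose and 32.9% fell in SCC2, 39.2% rose and 30.9% fell in SCC1, and 37.0% were higher and 39.4% lower in SCC2 than in SCC1. Of 51 ribosome biogenesis genes, among them the nucleolar proteins Ncl, Npm1 and Fbl, 37 rose and 6 fell in SCC2 (median log2 change 0.20), and 43 rose and 4 fell in SCC1 (median 0.28). Between the subclones 15 were higher and 26 lower in SCC2 than in SCC1 (median -0.071). Heatr1, a factor of small subunit processing, had log2 changes of 0.53 in SCC2 and 0.42 in SCC1, and Imp4, of the same complex, 0.51 and 0.36. Gnl3, the nucleolar GTPase nucleostemin, had 0.30 and 0.38, and Nhp2, a core protein of box H/ACA particles, 0.20 and 0.57, all past the threshold in limma. Bysl, needed for small subunit maturation, and Nop2, an rRNA methyltransferase, were lower in SCC2 than in SCC1 (-0.61 and -0.51).

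The 12 tested genes of RNA polymerase I and its factors, which transcribe the large rRNA precursor, comprised 5 that rose and 4 that fell in SCC2, and 9 that rose and 3 that fell in SCC1, beside 34.7% and 32.9% of all genes tested in SCC2 and 39.2% and 30.9% in SCC1. Polr1a, the largest subunit of that enzyme, had a log2 change of -0.11 in SCC2 and 0.44 in SCC1, both past the threshold. Of 8 chaperones of ribosomal proteins, 6 rose and 0 fell in SCC2, and 5 rose and 1 fell in SCC1. Heatr3, a carrier of Rpl5, rose in both (0.25 and 0.34), and Nap1l1, a histone chaperone, rose in SCC2 (0.26) and fell in SCC1 (-0.46).

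Of 15 other genes with terminal oligopyrimidine tracts, chiefly translation factors, 1 rose and 9 fell in SCC2 (66.7% called, beside 67.6% of all genes tested, median -0.095), and 8 rose and 6 fell in SCC1 (93.3% called, beside 70.1%, median 0.084). The elongation factor Eef1a1 had 6316, 6315 and 6289 FPKM in SCC2, 6592, 6497 and 6540 FPKM in SCC1, and 7710, 7777 and 7644 FPKM in LLC1. It was lower in both subclones (log2 change -0.29 in SCC2 and -0.24 in SCC1). Pabpc1, the poly(A) binding protein, fell in SCC2 (-0.27) and rose in SCC1 (0.27), and Rack1, the scaffold protein on the small subunit head, did the same (-0.16 and 0.24). Of 14 genes of mTOR signalling and tract control, 5 rose and 4 fell in SCC2 (64.3% called), and 7 rose and 5 fell in SCC1 (85.7% called). Larp1, which binds these tracts, rose in both (0.21 and 0.31), and Eif4ebp1, a translation repressor that mTOR inactivates, rose in SCC2 (0.38) and had 0.0083 in SCC1. Of 78 mitochondrial ribosomal protein genes, 28 rose and 19 fell in SCC2 (60.3% called, beside 67.6% of all genes tested), and 37 rose and 7 fell in SCC1 (56.4% called, beside 70.1%).

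Near-identical copies limit how firmly a single member can be read. In the GENCODE M21 annotation, which lists only annotated transcripts, 79 members had a coding sequence, and 74 of these had at least 1 other gene matching at least 95% of the bases over at least 80% of the coding length. There were 574 such copies in all, 556 of them pseudogenes, with a median of 5 a member and up to 57 for Rpl21. Of 78 members with a coding sequence of at least 150 bases, the read length, 11 had no window of 150 bases found elsewhere, 42 shared over 50% of their windows and 26 over 90%. The median share was 57.1% in the large and 45.9% in the small subunit. Rpl8, Rps3 and Rps27l had no copy by this measure, nor had Rpl3l.

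The lower levels in SCC2 were present with and without such copies. Among the 20 tested members that share under 20% of their windows, 15 were lower and 2 higher in SCC2 (median -0.14), and among the 42 that share over 50%, 32 were lower and 4 higher (median -0.14). For SCC1 the counts were 6 lower and 10 higher (median 0.037) among the 20, and 21 lower and 15 higher (median -0.045) among the 42. Of the genes named above, Rpl22, Rpl8, Rpl4, Rps14 and Rplp0 share few windows, from 0% for Rpl22 and Rpl8 to 14.8% for Rps14. Rps6, Rpl17, Rps12, Rpl38, Rpl10, Rpl5 and Rps27 share 100%, and Rps23 98.6%. Between them lie Rpsa with 45.0%, Rps19 with 42.3%, Rpl22l1 with 32.3% and Rplp1 with 21.8%. The values of genes that share windows can hold reads of their copies. No source used here says how the authors assigned such reads.

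**Figure D5:**
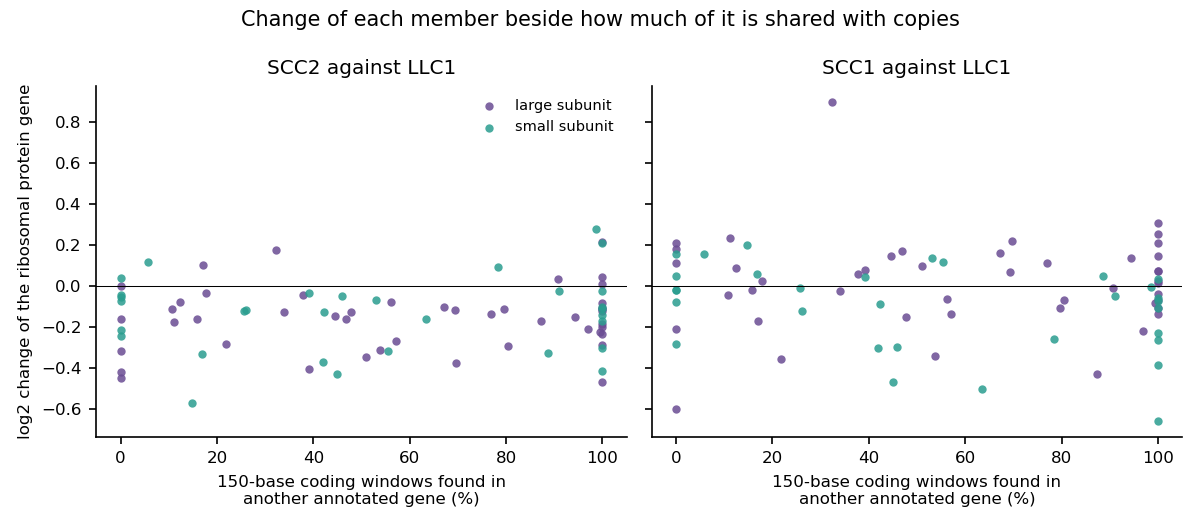
Log2 change of each member in SCC2 and in SCC1, each against LLC1 (vertical), beside the percent of its 150-base coding windows found in another annotated gene (horizontal), for large and small subunit genes. In SCC2 most points lie below 0 at either end of the axis, with medians of -0.14 among the 20 members under 20% and -0.14 among the 42 over 50%.

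The libraries were deep for such abundant genes. Whole fragments worked back from the FPKM steps summed to between 17094808 and 19398657 per library, of which 1058830 to 1242125 lay on the members. As a check of the labelled cells, the markers in the table of endothelial cells (3 genes), lung epithelium (3), lymphocytes (2) and red cells (1) were each under 1 FPKM in every library. Of the macrophage list 2 genes were in the table, with Csf1r near 0 and sums of 2.78 to 3.22 FPKM in SCC2, 8.36 to 10.4 in SCC1 and 3.84 to 4.52 in LLC1. The 4 fibroblast markers, mostly Col3a1, summed to 692 to 714 FPKM in SCC2, 258 to 268 in SCC1 and 571 to 597 in LLC1, and the 4 epithelial markers, mostly keratins, to 232 to 233, 446 to 456 and 333 to 342, with the defining gene Cdh1 at or near 0. Their part in the changes of the members was not tested.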

How the data were processed

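RNA was sequenced from 3 libraries each of SCC2, SCC1 and LLC1, grouped by their titles. The authors' deposited values were FPKM, made with cufflinks after Trimmomatic and hisat2, per the series' design text. Their versions, the annotation and any use of strand are not stated in the sources used here. The submitters' processing notes name GRCm38 and mm10. The design text names a TruSeq stranded kit and the labels' protocol a SMARTER kit.

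Here, genes of at least 1 FPKM in at least 3 of 9 libraries (10519) were tested on log2(FPKM + 1), pseudocount 1, with limma 3.58.1 in R 4.3.3, with robust eBayes and a mean-variance trend. All libraries entered one fit, tests were two-sided, and p-values were adjusted by Benjamini-Hochberg over all genes tested, with a threshold of 0.05. The log2 changes understate those of low genes. Members and lists were chosen with earlier results of these data known. Named genes are the 6 largest falls and rises with libraries apart, stalk and 5S genes, Rpsa, Rps6, Rps14, Rps19, Rpl17, paralogs, extreme levels, and up to 4 of each list by smallest adjusted p; further members are named to complete a group. Some genes that this rule takes are not reported here.

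FPKM steps gave whole fragments within 0.001 for all 12270 genes above 0 in every library, 100% of them, and limma-voom on these fragments called 3733 genes higher and 3530 lower in SCC2 against LLC1 (members: 10 and 59), 4193 genes higher and 3317 lower in SCC1 against LLC1 (members: 32 and 36), and 3975 genes higher and 4185 lower in SCC2 against SCC1 (members: 19 and 49). Counting error covers counting only. Chromosomes were taken by symbol from RefSeq (15668 of 15768 symbols matched, all 81 members among them), promoters from RefSeq and copies from GENCODE M21. Fits and fragment recovery were tested on simulated data. Tables and figures were made in Python 3.11.15 (pandas 2.3.3, numpy 2.4.6, matplotlib 3.10.9, scipy 1.17.1).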

Additional observations from a re-analysis of the deposited data

How the results depend on the processing

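The alternatives were another pseudocount, no filter or a stricter one, limma without trend, quantile normalization, median-of-ratios scaling, scaling to the genes outside the symbol rule, limma-voom on recovered fragments, chromosome medians removed, a fit of only the lines compared, and each library left out. One, added after seeing the data, kept only members sharing under 20% of their windows. It gave 15 lower and 2 higher in SCC2 against LLC1, 6 and 10 in SCC1 against LLC1, and 15 and 5 in SCC2 against SCC1, with fewer members by construction, and large minus small subunit medians of -0.0874, -0.0239 and -0.0199. With chromosome medians removed 3, 14 and 11 members were higher in these comparisons, and the subunit difference in SCC2 against LLC1 was -0.0069, beside -0.0523 under quantile normalization. Leaving out 1 library gave subunit differences of -0.0504 (without LLC1 replicate 3) to -0.0150 (without LLC1 replicate 2) in SCC2 against LLC1, 0.0756 to 0.1032 in SCC1 against LLC1 and -0.1382 to -0.1078 in SCC2 against SCC1. Without Rpl13, the highest member, the share of FPKM was 17.5% in SCC2, 18.6% in SCC1 and 19.3% in LLC1. Directions of single genes turned only with chromosome medians removed or under quantile normalization. With chromosome medians removed, in SCC2 against LLC1 the log2 changes were Rpl10 -0.0093, Rpl24 -0.1750, Rpl31 -0.0903, Rpl35a -0.1097, Rpl36a -0.2161, Rpl7l1 0.0476, Rps23 -0.0778 and Rps4x -0.1085. In SCC1 against LLC1 they were Rpl10 -0.1424, Rpl13 -0.0524, Rpl17 -0.0846, Rpl19 -0.0076, Rpl30 -0.0656, Rpl39 -0.0521, Rps14 -0.0320, Rps20 0.0709 and Rps4x -0.0111. In SCC2 against SCC1 they were Fau -0.1371, Rpl11 -0.0323, Rpl24 -0.2529, Rpl3 0.2007, Rpl35a -0.0283, Rps15 -0.0542, Rps26 -0.0308 and Rps6 -0.0479. Quantile normalization gave Rpl13 0.0206, Rpl37a 0.1007, Rpl39 0.0911 and Rpl7 0.0068 in SCC2 against LLC1, Rpl13 -0.1581, Rpl3 0.0605, Rps2 -0.1455 and Rps23 0.0738 in SCC1 against LLC1, and Rpl13 0.1787 in SCC2 against SCC1. The cause was not tested. Of the values of named genes under these alternatives 4213 kept direction and side of the threshold, 34 reversed, 61 lost and 29 gained significance. Over all tested genes same-numbered libraries did not deviate together (correlations -0.068 to 0.089), so the numbers do not pair them there. Over the members alone these correlations ran from -0.529 to 0.477, and those of differently numbered libraries from -0.67 to 0.624. With the replicate number as a block 57 members were lower and 9 higher in SCC2 against LLC1. The counts were 35 and 31 in SCC1 against LLC1, and 48 and 17 in SCC2 against SCC1. Depth did not limit the members except Rpl3l and Rpl32l.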

Other observations

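The genes whose levels over the 9 libraries were most like those of the members are given as a description, with the number of libraries as the only points and the 3 lines as their main source of spread. The mean of the z-scored small subunit genes had a Pearson correlation of 0.9932 with Slc44a2, a choline transporter-like protein, 0.9895 with Crabp1, a retinoic acid binding protein, and 0.9878 with Laptm4b, a lysosomal membrane protein. The mean of the large subunit genes had 0.9912 with Pik3cb, a catalytic subunit of phosphoinositide 3-kinase, 0.9912 with Akap8l, a nuclear anchoring protein, and 0.9898 with Tef, a transcription factor of the PAR bZIP family. Slc44a2, Crabp1 and Pik3cb lie on chromosome 9, Laptm4b and Tef on chromosome 15 and Akap8l on chromosome 17. The tested genes other than members on chromosomes 9, 15 and 17 had medians of -0.16, -0.25 and -0.13 in SCC2 against LLC1. In SCC1 against LLC1 these medians were -0.18, 0.16 and 0.052, and in SCC2 against SCC1 0.019, -0.44 and -0.19.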
